A study of Homo sapiens with 11 samples.

Results

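Binding near 7 genes of ribosome biogenesis was examined in HEK293T cells, a human embryonic kidney line, by CUT&RUN, an assay that sequences the DNA fragments cut loose by a nuclease tethered to an antibody. The genes were UTP18 and LTV1 of the small subunit, NOP56 and FBL of box C/D particles, and WDR74, NOP2 and RRP1B of the large subunit, 7 of 19974 protein-coding genes on chromosomes 1 to 22 and X. They were chosen by measured values: each had the summit of an edit_myc_FLAG peak within 1000 bp of either end of its annotated span. Their presence in that list is therefore a description and not a finding.

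The 11 libraries comprised 3 labelled edit_myc_FLAG, 3 labelled myc_FLAG, 3 labelled endog_myc, 1 with mouse IgG and 1 with rabbit IgG. The labels' protocols name a mouse antibody against FLAG, a rabbit antibody against myc and IgG of both species, and no treatment. What "edit" denotes, how the FLAG tag was introduced and whether a line is 1 clone are not given in the labels. Each target group (edit_myc_FLAG, myc_FLAG, endog_myc) has 1 deposited peak list for its 3 libraries, with 2172, 1290 and 1359 regions, and the mouse and rabbit IgG libraries have 305 and 309. Read depth is unknown from these lists and no list holds values per replicate, so no value below carries a replicate error. The fold and the −log10 q of a region are those of the authors' peak caller and are compared only within a list. Positions are on hg38, counted from 1.

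Ribosomes are assembled in the nucleolus, where RNA polymerase I transcribes the ribosomal RNA precursor, small nucleolar ribonucleoproteins guide its modification, and assembly factors fold and cut it into the small and large subunits. MYC, which binds DNA with its partner MAX at E-box sequences, is known as an activator of genes for ribosome biogenesis. The core E-box is CACGTG, and the wider family is written CANNTG.

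The summits of UTP18, NOP56 and LTV1 lay just upstream of the start of their own gene. Reference sequence from RefSeq (GRCh38.p14, the + strand, 5′ to 3′) is shown for the part of these 3 regions that lies in the promoter window before the gene's start, because these are the regions found at the annotated start of their own gene. The UTP18 stretch is chr17:51260296-51260489, the NOP56 stretch chr20:2652409-2652631 and the LTV1 stretch chr6:143843141-143843325. Capitals mark CANNTG.
UTP18: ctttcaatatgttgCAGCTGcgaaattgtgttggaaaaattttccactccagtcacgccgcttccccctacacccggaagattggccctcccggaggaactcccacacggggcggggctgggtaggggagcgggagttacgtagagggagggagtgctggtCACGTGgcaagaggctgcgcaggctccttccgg
NOP56: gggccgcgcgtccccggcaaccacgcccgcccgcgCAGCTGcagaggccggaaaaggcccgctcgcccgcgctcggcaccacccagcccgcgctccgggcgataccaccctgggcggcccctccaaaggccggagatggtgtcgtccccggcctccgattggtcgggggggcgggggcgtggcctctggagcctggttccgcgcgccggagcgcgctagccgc
LTV1: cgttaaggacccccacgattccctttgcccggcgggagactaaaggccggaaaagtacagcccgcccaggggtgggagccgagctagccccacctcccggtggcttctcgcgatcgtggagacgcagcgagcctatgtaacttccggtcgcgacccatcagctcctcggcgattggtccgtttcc

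The UTP18 stretch holds 1 CACGTG, whose centre lies 27.5 bp from the summit, and 1 CAGCTG 119.5 bp from it. The NOP56 stretch holds CAGCTG, 108.5 bp from the summit, and no CACGTG. The LTV1 stretch holds neither. These are matches of letters in the reference, on both strands since the motifs read the same on each, and binding to them was not measured.

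The small-subunit factors were UTP18 and LTV1. UTP18, a subunit of the UTP-B module of the small-subunit processome, spans 51260546 to 51297933 on chromosome 17. Its region, from 51260282 to 51260489, had a fold of 6.31 and a −log10 q of 5.19, the highest of the 7 on both measures. The summit at 51260432 lay 114 bp upstream of the UTP18 start. It also lay inside the span of MBTD1, a chromatin reader transcribed in the opposite direction, 383 bp from the nearest annotated MBTD1 start and 526 bp from the end of that span. By fold the region ranked 629 of 2172.

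LTV1, a factor for the maturation and export of the small subunit, spans 143843338 to 143863812 on chromosome 6. Its region, from 143843141 to 143843325, had the lowest fold of the 7, 4.71, and the lowest −log10 q, 2.34. The summit at 143843243 lay 95 bp upstream of the start, and no other annotated gene end lay within 1000 bp. The region ranked 1560 of 2172 by fold and 1886 by −log10 q.

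The box C/D ribonucleoprotein genes were NOP56 and FBL, which encode a core protein and the ribose methyltransferase of the same particle. NOP56 spans 2652632 to 2658393 on chromosome 20, and its region ran from 2652409 to 2652647 with a fold of 4.82 and a −log10 q of 2.62. The summit at 2652555 lay 77 bp before the NOP56 start and 91 bp before the start of LOC105372505, a long non-coding RNA gene on the opposite strand. The microRNA gene MIR1292, inside NOP56, had an end 222 bp away. The FBL region was of another kind. It ran from 39833463 to 39833841 on chromosome 19, the widest of the 7 at 379 bp, with a fold of 5.30 and a −log10 q of 5.14. FBL (39834458 to 39846379) is annotated on the − strand, so its start is at the upper end, 12835 bp from the summit at 39833544. The summit lay 914 bp beyond the far end of FBL and inside DYRK1B, a protein kinase gene, 618 bp from the DYRK1B start.

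The large-subunit factors were WDR74, NOP2 and RRP1B. WDR74, a WD-repeat protein of the pre-60S particle, spans 62832905 to 62841809 on chromosome 11 on the − strand. Its region, from 62831896 to 62832080, had a fold of 5.78 and a −log10 q of 4.65. The summit at 62831990 lay 915 bp beyond the far end of WDR74 and 7600 bp from its nearest annotated start. Closer ends were those of STX5 (61 bp, at its start), which encodes a Golgi SNARE protein, of the divergent transcript STX5-DT (244 bp) and of TEX54 (331 bp).

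NOP2 encodes an rRNA cytosine methyltransferase and spans 6556871 to 6568291 on chromosome 12, also on the − strand. Its region, from 6555965 to 6556151, had a fold of 4.85 and a −log10 q of 2.85. The summit at 6556018 lay 853 bp beyond the far end of NOP2, 12273 bp from its start, and 24 bp inside an end of IFFO1, which encodes an intermediate filament family protein. RRP1B, a nucleolar protein related to a yeast rRNA processing factor, spans 43659560 to 43696079 on chromosome 21. Its region, from 43696270 to 43696444, had a fold of 4.95, a −log10 q of 3.20 and the smallest width, 175 bp. The summit at 43696388 lay 309 bp outside the upper end of the span with no other gene end within 1000 bp. The start of RRP1B and that of IFFO1 are not in the table of starts used here, so the side of the RRP1B region is not assigned.

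**Figure D1:**
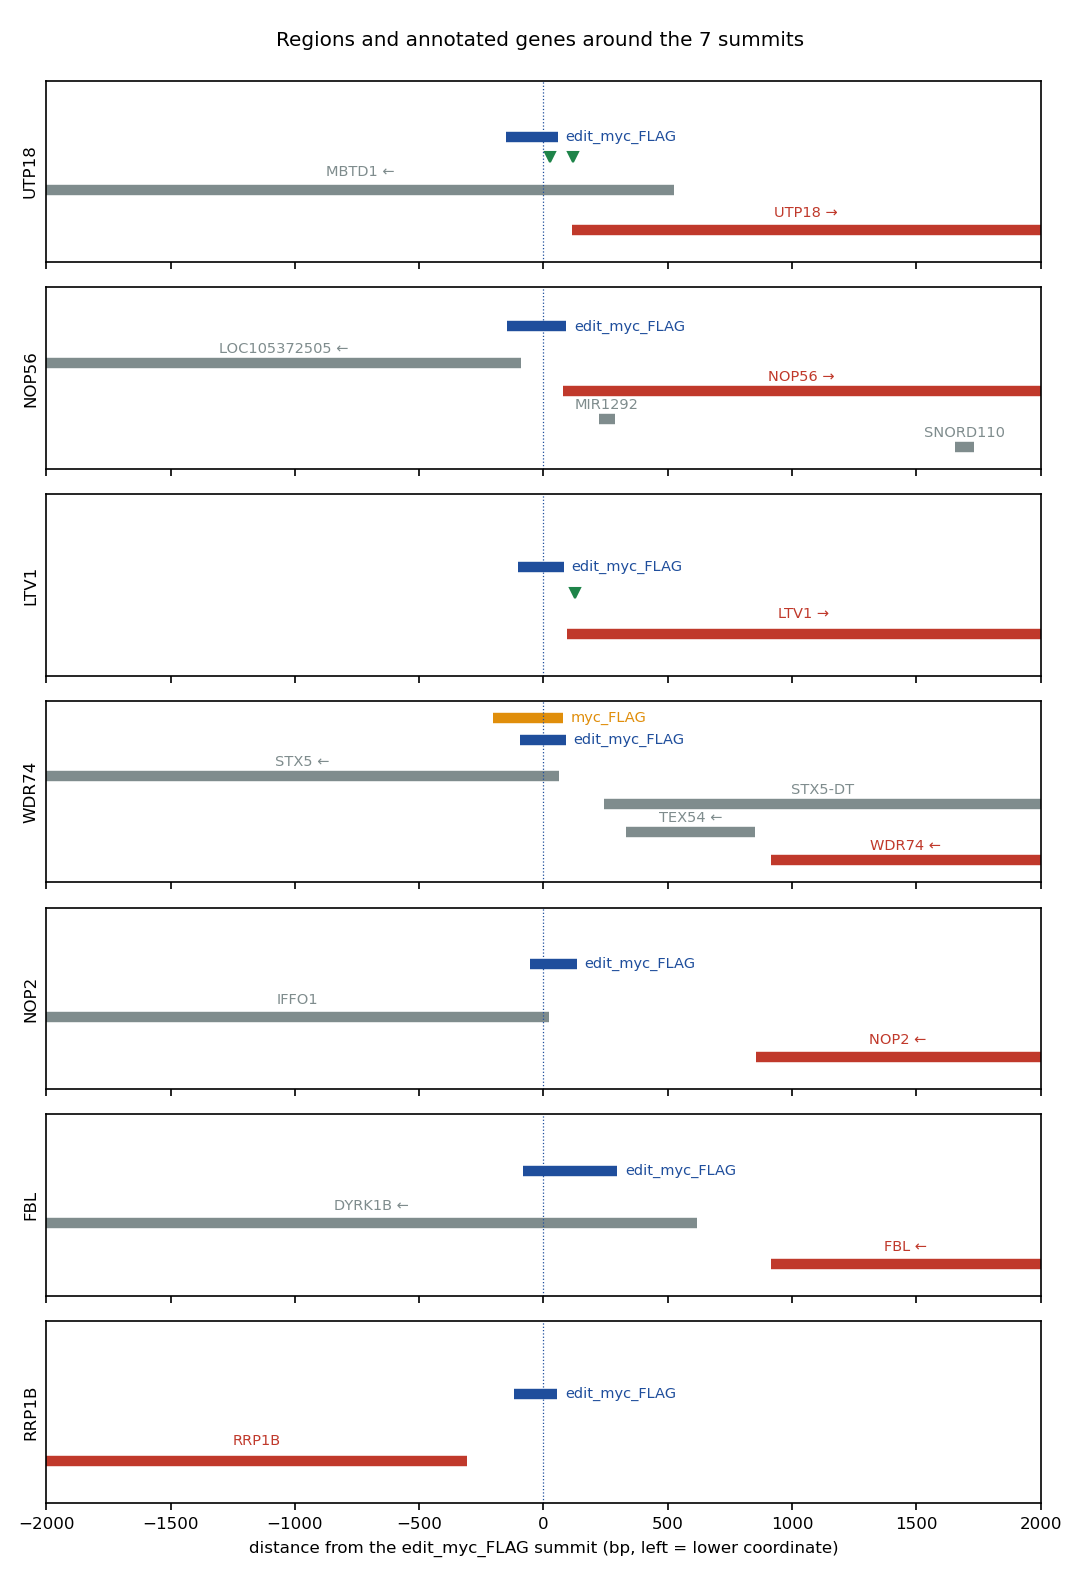
Annotated genes (red for the gene named at the left, grey for others, arrows for the direction of transcription where the table of starts gives it), peak regions (blue edit_myc_FLAG, orange myc_FLAG) and CACGTG matches found in promoter windows (green triangles) within 2000 bp of each edit_myc_FLAG summit, with the distance from the summit in bp on the horizontal axis. The UTP18, NOP56 and LTV1 regions lie at the start of the named gene (that of UTP18 also inside MBTD1), and the WDR74, NOP2 and FBL regions overlap a neighbouring gene and not the named one.

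Of the 6 genes with an annotated start in the table, 3 had the summit at the start (77 to 114 bp) and 3 had it beyond the opposite end (853 to 915 bp). Among all protein-coding genes with an edit_myc_FLAG summit at either end and a start in the table, 688 of 739 (93.1%) had the summit within 1000 bp of an annotated start. The nearest gene to the summit was the named gene in 4 of 7 cases (UTP18, NOP56, LTV1 and RRP1B), and for all genes with an edit_myc_FLAG summit at an end the figure was 700 of 853 (82.1%). Exons, introns and transcript ends are not in the gene table, and no RNA was measured.

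**Figure D2:**
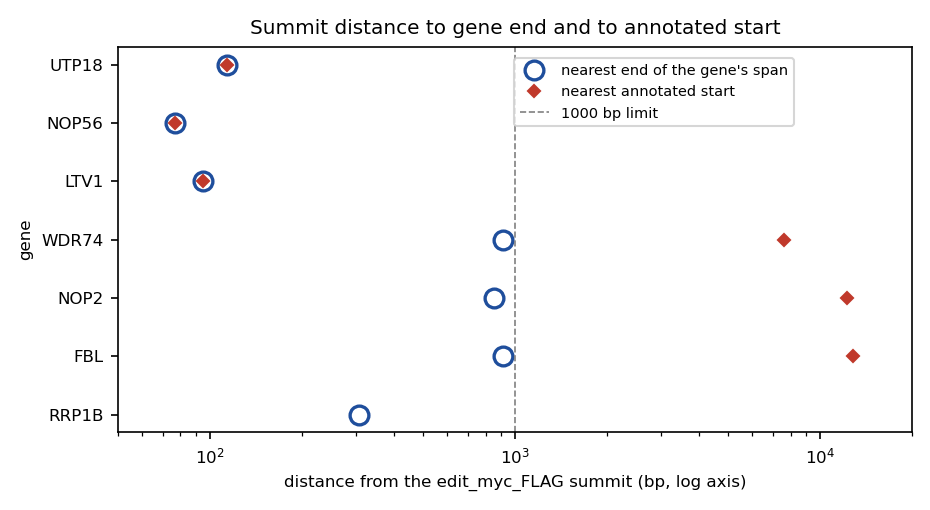
Distance in bp, on a log axis, from the edit_myc_FLAG summit to the nearest end of the gene's span (open circles) and to its nearest annotated start (red diamonds) for each of the 7 genes, with the 1000 bp limit dashed. Both marks coincide for UTP18, NOP56 and LTV1, whereas the starts of WDR74, NOP2 and FBL lie 7600 to 12835 bp away, and RRP1B has no start mark.

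CACGTG letters fell inside a region only at UTP18, among the parts of the regions covered by a promoter window. The table of promoters (250 bases before to 50 after each start) holds 6 of the 7 genes, and 4 of these 6 have a CACGTG in the window. UTP18 has a second match that begins at base 5 of the transcript, outside the region. LTV1 has a match that begins at base 29, with 40 bases between it and the region's edge. In NOP2 and FBL the match begins at bases 36 and 7, and its centre is 12235.5 and 12826.5 bp from the summit. WDR74 and NOP56 have no CACGTG in their windows. These matches are printed with the bases beside them, in the direction of transcription, to show where an E-box stands at a gene's start with no region on it; UTP18 is chr17:51260540-51260565, LTV1 chr6:143843356-143843381 (both + strand), NOP2 chr12:6568242-6568266 and FBL chr19:39846358-39846383 (both − strand). Capitals mark CACGTG.
UTP18: agcgaggttcCACGTGagcgcctgcg
LTV1: cctggggctgCACGTGtggtgaggcc
NOP2: gtccggattgCACGTGgagggccgc
FBL: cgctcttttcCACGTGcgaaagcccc

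Over all protein-coding genes in the promoter table, 1723 of 15812 (10.9%) hold CACGTG in a window of this length, and 65.1% of windows hold some CANNTG. Among 146 ribosome biogenesis genes of a wider list with a window (described below), 48 (32.9%) hold CACGTG. An edit_myc_FLAG summit lay within 1000 bp of a start for 3 of these 48 and for 3 of the 98 without CACGTG. UTP18 and LTV1 are among the former and NOP56 among the latter, all chosen for such a summit, so these counts were not compared. Of all protein-coding genes with a start in the table, 4.83% had such a summit.

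By fold the 7 regions ranked from 629 to 1560 of 2172. Folds ran from 4.71 to 6.31 with a median of 4.95, where the whole edit_myc_FLAG list had a median of 5.36 and its 696 regions at ends of protein-coding genes a median of 5.45. Only UTP18 and WDR74 exceeded either median. The −log10 q ran from 2.34 to 5.19 (median 3.20), where the list's median was 4.95 and that of its regions at gene ends 3.96. UTP18 and FBL, 2 of 7, had a −log10 q of 5 or more, as did 33.6% of the edit_myc_FLAG regions at gene ends. Widths were 175 to 379 bp (median 187), against a median of 235 bp at gene ends. As these values belong to the list that chose the genes, they were not tested.

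**Figure D3:**
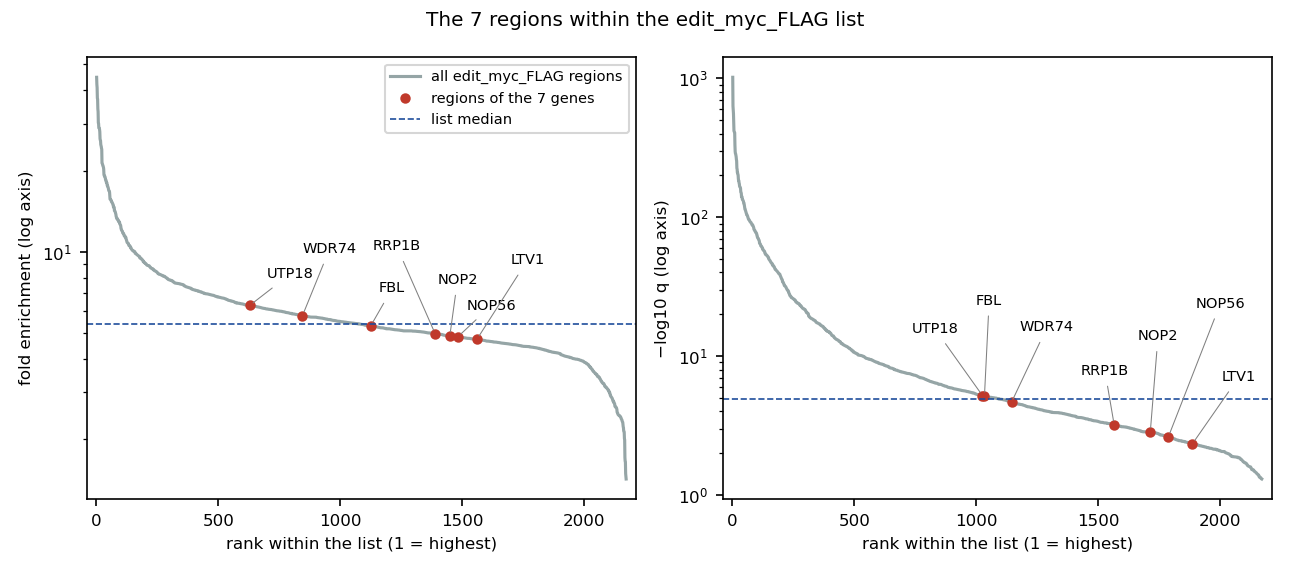
Fold (left) and −log10 q (right), both on log axes, of all 2172 edit_myc_FLAG regions against their rank within the list (grey), with the regions of the 7 genes in red and the list median dashed. UTP18 and WDR74 lie above the median fold, UTP18 and FBL above the median −log10 q, and LTV1 is the lowest of the 7 on both.

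No other list had a summit within 1000 bp of an end of any of the 7 genes. The share of all protein-coding genes with such a summit was 4.27% in edit_myc_FLAG, 1.65% in myc_FLAG, 1.8% in endog_myc, 0.02% in mouse IgG and 0.0851% in rabbit IgG. Of the 853 genes with an edit_myc_FLAG summit, 26.0% also had a myc_FLAG summit and 27.4% an endog_myc summit within the same distance. Up to 50000 bp from an end, endog_myc, mouse IgG and rabbit IgG still had no row for any of the 7, and edit_myc_FLAG had no second row. Of the 853 genes, 33.4% had an endog_myc row within that distance, 30.9% a myc_FLAG row, 0.586% a mouse IgG row and 2.23% a rabbit IgG row. The lists end at the caller's threshold, so a missing row is no measured absence of binding.

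The exception was WDR74 in myc_FLAG. A myc_FLAG region from 62831785 to 62832069 shared 174 bp with the edit_myc_FLAG region. Its summit at 62831826 lay 1079 bp from the WDR74 span, just outside the limit, and 225 bp from the start of STX5. Its fold was 4.13 (rank 1067 of 1290) and its −log10 q 1.52 (rank 1261), near the end of that list. No edit_myc_FLAG region of the 7 overlapped an IgG region, and 838 of the 853 genes (98.2%) kept a summit when regions overlapping IgG were left out.

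The members closest to the limit on its inner side were WDR74 (915 bp), FBL (914 bp) and NOP2 (853 bp). Just outside it, up to 2000 bp, lay 2 further ribosome biogenesis genes in edit_myc_FLAG. POLR1D, a subunit of RNA polymerases I and III, had a summit 1118 bp from its span but 31 bp from an annotated start, beside LNX2 (fold 4.89). UTP14A, a processome component, had a summit 1969 bp from its nearer end (fold 5.54).

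A list of 169 ribosome biogenesis genes, ordered by role and written with the 7 genes known, places them among their pathway. In edit_myc_FLAG 12 of 169 had a summit at an end (7.10%), of which 7 are in the list by choice. Without those 7 genes it was 5 of 162 (3.09%), beside 4.27% of all protein-coding genes. All 7 had a summit, so leaving them out lowers the share, as choosing them for it raises the other. Neither 7.10% nor 3.09% is therefore read as an excess or a deficit. By role the 12 were 1 of 21 genes of rDNA transcription and nucleolar scaffold, 2 of 12 of snoRNP, 2 of 61 of small-subunit assembly, 6 of 61 of large-subunit assembly and 1 of 14 of the nuclear exosome. The snoRNP genes (NOP56 and FBL) and the small-subunit genes (UTP18 and LTV1) were all chosen for the summit. So were WDR74, NOP2 and RRP1B of the large subunit, and the roles were therefore not compared. In myc_FLAG 0 of 169 had a summit at an end, where 1.65% of all protein-coding genes did, and in endog_myc 1 of 169, where 1.8% did.

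TAF1B, a subunit of the SL1 factor of RNA polymerase I, had a summit 146 bp from a start (fold 5.45). DDX54, an RNA helicase, had one 287 bp from its start, with RITA1 also within 1000 bp (fold 5.07). URB2, a pre-60S factor, had a summit 125 bp from an end and nearer to TAF5L (fold 5.02), and EXOSC1, a cap subunit of the exosome, one 133 bp from an end and nearer to ZDHHC16 (fold 6.43). The SENP3 summit (fold 6.10) lay 657 bp from an end and 10707 bp from the start of this SUMO protease gene, nearer to the translation factor gene EIF4A1. Thus 5 of the 9 pathway genes with a start in the table had the summit at it, and 6 of 12 were the nearest gene. The chosen genes make up 6 of those 9, with 3 at the start, and 7 of the 12, with 4 the nearest gene. For all protein-coding genes with an edit_myc_FLAG summit at an end, the shares were 93.1% and 82.1%.

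When only annotated starts counted, the pathway share was 6 of 146 in edit_myc_FLAG (4.11%), or 3 of 140 (2.14%) without the 7 genes. That of all protein-coding genes was 4.83%. The 2.14% is lowered by leaving out UTP18, NOP56 and LTV1, which were chosen for a summit, so it is not read as a deficit. The 6 pathway genes were UTP18, NOP56, LTV1, TAF1B, DDX54 and POLR1D. In myc_FLAG none of the 146 had a summit at a start, where 1.87% of all genes did, and in endog_myc 1 did, where 2.1% did. That gene was NGDN, a processome-associated factor on chromosome 14, with an endog_myc region from 23469361 to 23469574 (fold 5.40, −log10 q 3.62) whose summit lay 293 bp from its start. Neither IgG list had a summit at an end of any of the 169 genes.

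**Figure D4:**
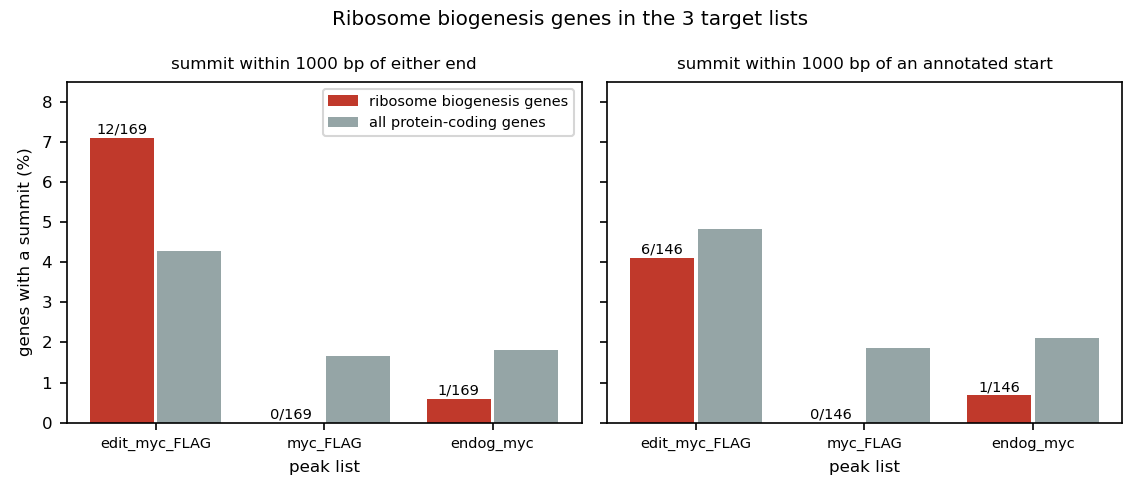
Percent of genes with a summit within 1000 bp of either end (left) or of an annotated start (right) in the 3 target lists, for the ribosome biogenesis genes (red, with counts) and all protein-coding genes (grey). In edit_myc_FLAG the red bar is above the grey one for either end (7.10% and 4.27%) and below it for starts (4.11% and 4.83%). Both red edit_myc_FLAG bars include genes chosen for a summit at an end, 7 for either end and 3 for starts. Without the chosen genes the bars would be 3.09% and 2.14%, shares that are lowered by leaving out genes known to have a summit.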

How the data were processed

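The submitters' processing notes list hg38, MACS3 3.0.0b1, HOMER 4.10, Bowtie2 2.4.5 and SAMtools 1.15 without roles; options and any control of the peak calling are not given there. The deposited peak lists give a fold (a ratio), a −log10 q and a −log10 p for each region, and the deposited score is a rescaled −log10 q; the authors computed all of these, and the score and −log10 p were not used. Summits were taken as start plus offset plus 1. Gene spans, annotated starts (15812 protein-coding genes) and promoter sequences came from RefSeq tables of GRCh38.p14, and all 169 pathway symbols matched. Distances, ranks, overlaps of at least 1 bp and motif matches were computed with Python 3.11.15, pandas 2.3.3 and NumPy 2.4.6. The search for summits at gene ends and starts and the overlaps were tested on simulated data, and motif matching on a short test sequence. The members and lists were chosen with earlier results of these data known, so no test was run and counts stand beside those of all genes. Named were all members, genes with an end at their summits, pathway genes with a summit at an end in any list, and those up to 2000 bp away. Read depth is unknown. RRP1B has no promoter entry.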

Additional observations from a re-analysis of the deposited data

How the results depend on the processing

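No paired analysis was possible because each group has 1 merged list, and leaving out a replicate could not be run for the same reason. Of the 7 genes, the number with an edit_myc_FLAG summit was 4 within 500 bp (3.76% of 19974 protein-coding genes) and 4 when only the nearest gene counted (3.50%). It was 3 at annotated starts (3.82%, or 4.83% of the 15812 genes with a start in the table). It was 2 at a −log10 q of at least 5 (1.45%) and 3 when each target list was held to its 1290 highest-fold rows (2.80%). It was 7 within 2000 bp (4.79%), with any base of the region (4.40%), and without regions overlapping IgG (4.20%). In myc_FLAG it was 1 (WDR74) within 2000 bp (1.79%) and 1 with any base of the region (1.68%). Of the 169 pathway genes, edit_myc_FLAG had 4 at that −log10 q, 6 with the nearest gene only, 6 at starts and 6 with equal numbers of rows. These include the 2, 4, 3 and 3 chosen genes counted above, and the shares of all protein-coding genes are those given above. Of the same 169, myc_FLAG had 1 within 2000 bp and 1 with any base of the region, and endog_myc had 0 at that −log10 q (0.931%). Ranked by −log10 q instead of fold, UTP18 moved from 629 to 1025. The other 6 genes' ranks stayed within 1.5 times. The counts changed because each setting counts fewer or more rows or genes, and the rank because the same 2172 rows are ordered by another column.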

Other observations

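The share of promoter windows with CACGTG was counted over all protein-coding windows that hold a summit of each target list. Of 467 windows holding an edit_myc_FLAG summit, 11.1% had CACGTG. The share was 10.2% of 197 windows for myc_FLAG and 7.55% of 212 for endog_myc. Of all 22132 protein-coding windows it was 8.34%. The median GC share of the windows holding a summit was 68.0%, 65.0% and 65.2% in the same order, against 62.3% for all protein-coding windows. These are counts over windows with no test, and a gene can have several windows. The lists share HEK293T chromatin, and motif matches outside the windows were not searched.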
